A study of Mus musculus with 27 samples.

Results

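Elastic fibre genes were followed across the infarcted mouse heart in 10 genes that encode elastin, fibrillin-1, the microfibril-associated proteins Mfap4 and Mfap5, and 6 fibulins. They were taken from the deposited count table by gene symbol (Eln, Fbn1, Mfap4, Mfap5, Efemp2, Fbln5, Efemp1, Fbln7, Fbln1 and Fbln2), and all 10 were found among its 27304 genes. The hearts came from male ApoE-/- mice of the C57BL/6J strain, 7 days after myocardial infarction (MI). Mice with chronic kidney disease (CKD) ate a western diet for 4 weeks, then the same diet with 0.3% adenine for 10 days and with 0.15% adenine for 11 days, of which 4 preceded and 7 followed the infarction. Control mice ate the western diet throughout. Loss of ApoE, the western diet and the infarction were thus common to all mice, and uninfarcted hearts were not analysed here. Bulk RNA sequencing covered the infarct of 7 CKD and 6 control mice and the remote myocardium of 8 CKD and 6 control mice. Both regions came from the same heart in 13 of 14 mice, and each mouse is a separate animal named by its number in the sample titles.

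An elastic fibre has a core of cross-linked elastin on a scaffold of fibrillin microfibrils. Cells secrete the soluble precursor tropoelastin, fibulins bring it to the microfibrils and to the cross-linking enzymes, and lysyl oxidases join the molecules into an insoluble polymer. In the heart, fibroblasts, smooth muscle cells and valve cells are known producers, and matrix laid down in a healing infarct contains such proteins. In bulk tissue, fewer cells of a type and less RNA per cell cannot be told apart.

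Total counts were 14255456 to 42566498 per library. Levels are CPM, which are read counts relative to the library total, scaled over all 27 libraries with the TMM method, under which most genes are taken as equal between libraries. A gene was called when its adjusted p in edgeR's quasi-likelihood test, Benjamini-Hochberg adjusted over all genes tested, was under 0.05. The infarct library of CKD mouse 9179 stood apart from its label, with summed CPM of 122350 over 12 cardiomyocyte markers and 843 over 7 pan-fibroblast markers. The other CKD infarct libraries had pan-fibroblast scores of 7.57 to 8.77 (mean log2 CPM), against 5.74 in that of mouse 9179, whose remote library had 6.29. The infarct library of CKD mouse 9172 had 93063 summed CPM over the cardiomyocyte markers and an activated fibroblast score of 5.43. In CKD infarct libraries other than those of mice 9172 and 9179, these were 30885 to 61276 CPM and 6.58 to 7.63. CKD remote libraries had 93762 to 124713 CPM of cardiomyocyte markers. The remote library of control mouse 9180 had a pan-fibroblast score of 7.87, against 6.21 to 7.26 in the other control remote libraries. For mouse 9179 the remote sample's title says CKD and its treatment label says control, and the title was followed.

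Elastin reached the highest CPM of the 10 genes in the infarct. Eln, which encodes the elastic core itself, had 81.1, 657 and 1508 CPM (lowest, median and highest) in the 7 CKD infarcts, against 524, 2275 and 6082 CPM in the 6 control infarcts. In remote myocardium it had 61.3, 106 and 157 CPM in the 8 CKD hearts, against 75, 156 and 964 CPM in the 6 control hearts. All 7 CKD infarcts lay below the control median, and 3 of them lay below the lowest control infarct, that of mouse 9184, so the groups overlapped. The highest values were in control mice 9183 and 9171, and the remote library of mouse 9180 was the only control remote library above the lowest control infarct. Levels of all 10 genes in each library are plotted by group.

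**Figure D1:**
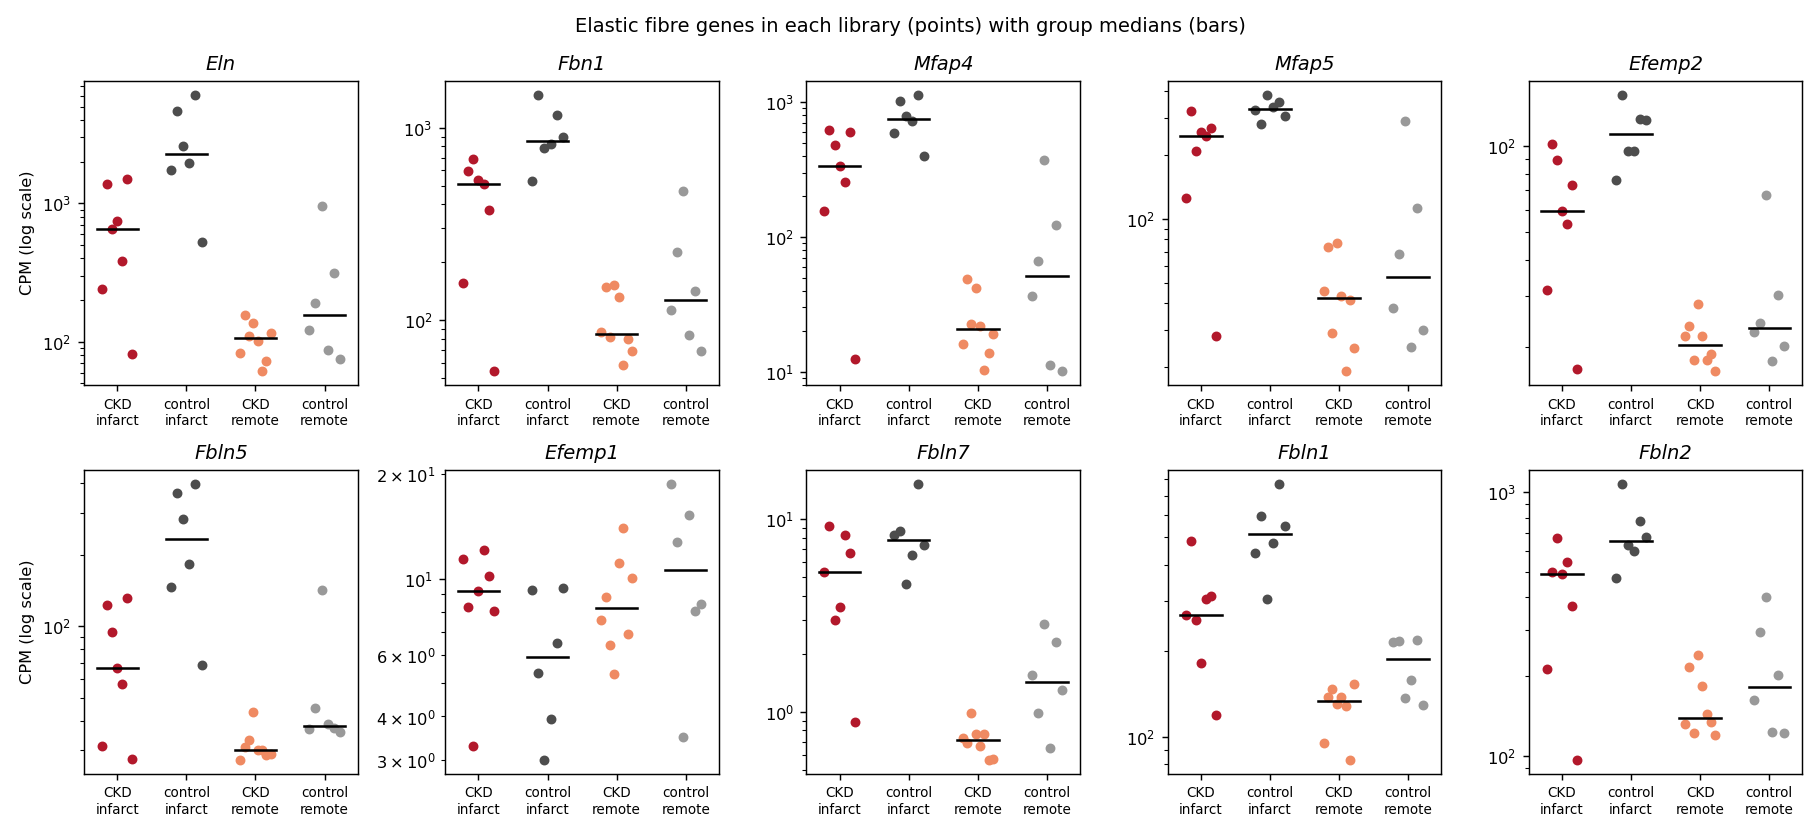
CPM (log scale) of the 10 elastic fibre genes in each library, with 1 panel per gene; points are libraries, bars are group medians, and the groups run from CKD infarct and control infarct to CKD remote and control remote. Eln reached 6082 CPM in a control infarct and 1508 CPM in the highest CKD infarct, and Efemp1 stayed between 3.0 and 18.8 CPM in all groups.

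The microfibril genes followed the same order of groups by their medians. Fbn1, which encodes the fibrillin-1 scaffold, had 54.5, 513 and 691 CPM in CKD infarcts, against 528, 857 and 1481 CPM in control infarcts. Mfap4, a fibrinogen-domain protein bound to microfibrils, had 12.5, 335 and 624 CPM in CKD infarcts, against 402, 757 and 1136 CPM in control infarcts. Mfap5, a small microfibril-associated glycoprotein, had 28, 246 and 323 CPM in CKD infarcts, against 281, 332 and 385 CPM in control infarcts. Of these, Mfap5 spread least among control infarcts, and 6 of 7 CKD infarcts lay below the lowest of them. In remote myocardium Fbn1 had 59.1, 84.6 and 152 CPM in CKD hearts, against 69.3, 128 and 470 CPM in control hearts. Remote Mfap4 had 10.3, 20.6 and 48.4 CPM in CKD hearts, against 10.1, 51.1 and 374 CPM in control hearts. Remote Mfap5 had 19.1, 42.3 and 76.9 CPM in CKD hearts, against 24.9, 53.1 and 289 CPM in control hearts. The highest control remote value of each of the 3 genes came from mouse 9180, and the groups overlapped for each.

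Of the short fibulins, Fbln5, whose protein binds tropoelastin and is required for fibre assembly, had 27.7, 66.4 and 132 CPM in CKD infarcts, against 68.3, 232 and 399 CPM in control infarcts. Efemp2 encodes fibulin-4, which brings lysyl oxidase to elastin, and had 16.8, 59.5 and 102 CPM in CKD infarcts, against 76.4, 110 and 150 CPM in control infarcts. Efemp1, which encodes fibulin-3, had 3.28, 9.22 and 12.1 CPM in CKD infarcts, against 3.0, 5.92 and 9.37 CPM in control infarcts. Efemp1 thus had its higher median in CKD infarcts, and the groups overlapped for all 3 genes. Fbln7, another secreted fibulin, had 0.887, 5.30 and 9.24 CPM in CKD infarcts, against 4.61, 7.79 and 15.3 CPM in control infarcts. In remote myocardium Fbln5 had 27.3, 29.97 and 43.4 CPM in CKD hearts, against 35.7, 38 and 142 CPM in control hearts. Remote Efemp2 had 16.5, 20.3 and 28.2 CPM in CKD hearts, against 17.9, 23.3 and 67.3 CPM in control hearts. For Fbln5, 7 of 8 CKD remote libraries lay below the lowest control remote library and only that of mouse 9175 overlapped, while for Efemp2 it was 1 of 8. Remote Efemp1 had 5.29, 8.23 and 14 CPM in CKD hearts, against 3.49, 10.6 and 18.8 CPM in control hearts. Remote Fbln7 had 0.563, 0.711 and 0.985 CPM in CKD hearts, against 0.649, 1.43 and 2.84 CPM in control hearts, which in the CKD hearts rests on 9 to 22 counts per library.

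The long fibulins are found in elastic fibres and in basement membranes. Fbln1 had 119, 267 and 484 CPM in CKD infarcts, against 303, 512 and 772 CPM in control infarcts. Fbln2 had 96.5, 491 and 672 CPM in CKD infarcts, against 473, 653 and 1079 CPM in control infarcts. For Fbln1, 4 of 7 CKD infarcts lay below the lowest control infarct, and for Fbln2 it was 3 of 7. Remote Fbln1 had 82.8, 134 and 153 CPM in CKD hearts, against 129, 187 and 218 CPM in control hearts. Remote Fbln2 had 120, 139 and 241 CPM in CKD hearts, against 122, 183 and 401 CPM in control hearts. The remote library of mouse 9180 was not the highest control for Fbln1 but the second lowest, at 137 CPM, and the remote groups overlapped for both genes.

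Between genes, levels were compared as median CPM per kilobase of merged exons. In control infarcts Eln led with 590 CPM per kilobase, followed by Mfap4 with 422 and Mfap5 with 220. In CKD infarcts Mfap4 led with 187 CPM per kilobase, followed by Eln with 170 and Mfap5 with 164. The ranges of neighbouring genes in that order overlapped in 9 of 9 cases in CKD infarcts and in 8 of 9 in each other group. In remote myocardium Fbln1 led, with 32.6 CPM per kilobase in CKD hearts and 45.5 in control hearts, and its range overlapped that of the next gene in both. Fbln7 was last in every group, with 1.64 CPM per kilobase in CKD infarcts, 2.41 in control infarcts, 0.220 in CKD remote and 0.442 in control remote myocardium.

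CKD was first set against control within the infarct, which asks whether kidney disease changed these genes in healing tissue. Eln, Fbln5 and Fbln1 fell in CKD infarcts. Eln fell by 2.07 ± 0.65 (log2 fold change ± SE, adjusted p = 0.0419 by edgeR, n = 7 CKD and 6 control). Fbln5 fell by 1.70 ± 0.45 on the log2 scale (adjusted p = 0.0345 by edgeR). Fbln1 fell by 0.97 ± 0.29 on the log2 scale (adjusted p = 0.0383 by edgeR). These are 3 of 10 members called lower, against 7.14% of the 14358 genes tested, and 0 of 10 called higher, against 13.1%. For the other members, the log2 fold change was -1.22 ± 0.46 for Fbn1, -1.17 ± 0.58 for Mfap4, -0.90 ± 0.34 for Efemp2, -0.81 ± 0.36 for Fbln2, -0.71 ± 0.41 for Fbln7 and -0.70 ± 0.38 for Mfap5. Their adjusted p ran from 0.0693 for Efemp2 to 0.210 for Fbln7 by edgeR. Efemp1 had the only positive value, 0.48 ± 0.31, with an edgeR adjusted p of 0.255. The median over the 10 members was -0.93, against -0.02 over all genes tested.

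**Figure D2:**
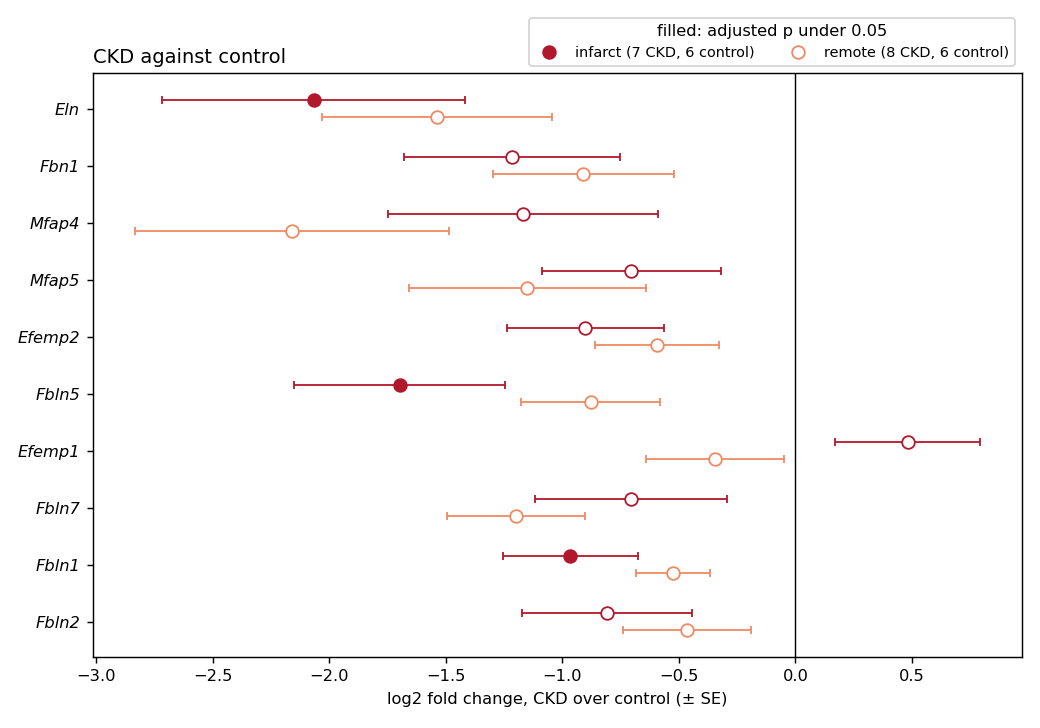
Log2 fold change of CKD over control (points, with SE bars) for each of the 10 genes in the infarct and in remote myocardium; filled points have an edgeR adjusted p under 0.05. Filled points are Eln at -2.07, Fbln5 at -1.70 and Fbln1 at -0.97 in the infarct, while all 10 remote values lie below 0 with open points.

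The number of calls in the infarct depended on single libraries and on the tool. It was 0 without both infarct libraries of CKD mice 9172 and 9179, where Eln stood at -1.71 (adjusted p = 0.101 by edgeR), Fbln5 at -1.41 (0.0926) and Fbln1 at -0.83 (0.0994). It was also 0 without any 1 of the infarct libraries of control mice 9171, 9182 and 9183 and CKD mice 9172 and 9177. It was 1 without that of CKD mouse 9176 and 5 without that of CKD mouse 9175. DESeq2 called 5 members, adding Fbn1 and Efemp2, against 4557 of 14358 genes tested in either direction. Limma-voom called Fbln5 alone, and its total over all genes is not given here. Direction was the same for all 3 called genes in these fits.

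Cell type markers moved with this comparison. Of 12 cardiomyocyte markers, 6 were called higher in CKD infarcts, with summed CPM of 30885, 60442 and 122350 (lowest, median and highest) in CKD infarcts, against 4535, 26662 and 31383 in control infarcts. Of 7 pan-fibroblast markers, 1 was called lower (Ddr2), with summed CPM of 843, 10895 and 23463 in CKD infarcts, against 17613, 23982 and 38182 in control infarcts. That list includes the collagen genes Col1a1 and Col3a1, which are matrix genes like the members. Its sum and score are therefore not a measure of fibroblast number alone. Of 7 activated fibroblast markers, 3 were called lower (Acta2, Fap and Comp), with summed CPM of 206, 2054 and 2652 in CKD infarcts, against 1691, 3768 and 5126 in control infarcts. Of 6 smooth muscle markers, 2 were called lower (Tagln and Actg2), and their summed CPM was 3182, 4471 and 8747 in CKD infarcts, against 1250, 2997 and 5407 in control infarcts. That sum was mostly Des, which cardiomyocytes also express, at 4292 CPM in the median CKD infarct and 2752 CPM in the median control infarct. Each marker of these 4 lists had counts in every library. Of 4 tested valve interstitial markers, 1 was called lower (Chad, at -1.48, adjusted p = 0.0374 by edgeR), and their summed CPM, mostly Fmod, was 23.9, 77.8 and 131 in CKD infarcts, against 121, 205 and 239 in control infarcts. Of 3 tested atrial markers, Myl7 was called higher, with 0.435, 1.04 and 217 CPM in CKD infarcts, against 0.147, 0.392 and 0.90 CPM in control infarcts. The atrial score was 7.49 in the infarct library of mouse 9179, against 1.81 to 3.60 in the other CKD infarct libraries and 1.39 to 2.83 in control infarcts. Hapln1 of the valve list and Bmp10 and Sln of the atrial list were not tested here and had 0 counts in some libraries. No endothelial, mesothelial, macrophage or neutrophil marker was called by edgeR. Of these, 1 neutrophil marker had an unadjusted p under 0.05, against 5765 of 14358 genes tested. With the cardiomyocyte score as a covariate, Eln stood at -0.33 (adjusted p = 0.972 by edgeR), Fbln5 at -0.48 (0.969) and Fbln1 at -0.46 (0.969). With the pan-fibroblast score as a covariate, Eln stood at -0.96 (adjusted p = 0.536 by edgeR), Fbln5 at -1.06 (0.50) and Fbln1 at -0.38 (0.534). No gene of the whole table was called in either covariate fit. The cardiomyocyte score was 10.63 to 12.65 in CKD infarcts, against 7.40 to 10.67 in control infarcts. The pan-fibroblast score was 5.74 to 8.77 in CKD infarcts, against 8.59 to 9.28 in control infarcts. Both scores thus largely follow diet, so these fits cannot tell the 2 apart, and the loss of calls shows no cause.

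In remote myocardium no member was called by edgeR, DESeq2 or limma-voom, although all 10 edgeR values were below 0 and 8 had an unadjusted p under 0.05. The edgeR background there was 0.0216% of 13902 genes called lower, 7121 genes below 0 and 1626 at an unadjusted p under 0.05 in either direction. The largest differences were -2.16 ± 0.67 for Mfap4 (adjusted p = 0.288 by edgeR, n = 8 CKD and 6 control), -1.54 ± 0.49 for Eln (0.305) and -1.20 ± 0.30 for Fbln7 (0.236). Mfap5 stood at -1.15 ± 0.51, Fbn1 at -0.91 ± 0.39, Fbln5 at -0.88 ± 0.30, Efemp2 at -0.59 ± 0.27, Fbln1 at -0.52 ± 0.16, Fbln2 at -0.47 ± 0.27 and Efemp1 at -0.35 ± 0.30, with edgeR adjusted p of 0.281 to 0.679. The median over the members was -0.89, against -0.005 over all genes tested. Without the remote library of control mouse 9180, Mfap4 stood at -1.03, Eln at -0.59, Mfap5 at -0.32, Fbn1 at -0.33, Fbln5 at -0.30, Efemp2 at -0.15 and Fbln2 at -0.17, while Fbln1 stood at -0.58 and Fbln7 at -0.91. Pan-fibroblast markers had summed CPM of 913, 1099 and 1573 in CKD remote libraries, against 1041, 1736 and 8784 in control remote libraries, with 0 of 7 called by edgeR, 7 below 0 and 4 at an unadjusted p under 0.05. The median log2 fold change of these pan-fibroblast markers was -0.38. Activated fibroblast markers had summed CPM of 122, 261 and 411 in CKD remote libraries, against 241, 311 and 2699 in control remote libraries, the highest from mouse 9180. Of these 7 markers, 0 were called by edgeR, 7 were below 0 and 6 had an unadjusted p under 0.05. Their median log2 fold change was -2.82. Mesothelial markers had summed CPM of 16.8, 29.7 and 64.0 in CKD remote libraries, against 35.9, 64.7 and 98.1 in control remote libraries, with 0 of 6 called by edgeR, 6 below 0, 3 at an unadjusted p under 0.05 and a median of -1.22. Valve interstitial markers had summed CPM of 19.6, 22.98 and 30.4 in CKD remote libraries, against 22.2, 44.9 and 121 in control remote libraries, the highest from mouse 9180, with 0 of 4 called by edgeR, 4 below 0, 2 at an unadjusted p under 0.05 and a median of -1.55. By score, control mice 9170 (4.18) and 9171 (3.39) were above mouse 9180 (2.67). Their remote libraries had atrial scores of 7.21 and 6.98, against 0.946 to 2.31 in the other control remote libraries. Atrial scores ran from 0.441 to 7.92 in CKD remote libraries. The part of such tissue in the remote values was not tested. No marker of the other 6 lists was called there by edgeR, and an unadjusted p under 0.05 was seen for 2 of 3 tested neutrophil markers, for 1 each of the cardiomyocyte, atrial, smooth muscle and macrophage lists and for 0 of 5 endothelial markers. The cardiomyocyte markers were above 0 in 12 of 12 cases, with a median of 0.24. With the pan-fibroblast score as a covariate, 6 of the 10 values turned positive, Eln at 0.27 and Mfap4 at 0.57 among them.

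Infarct was then set against remote myocardium, which asks how these genes respond in the healing region. In CKD mice 9 of 10 members rose, against 24.7% of the 14770 genes tested called higher, and 0 fell, against 20.2%. Mfap4 rose by 3.86 ± 0.68 (log2 fold change ± SE, adjusted p = 1.68e-04 by edgeR, n = 7 infarct and 8 remote), Fbln7 by 2.87 ± 0.37 (7.16e-05) and Eln by 2.76 ± 0.58 (7.10e-04). Mfap5 rose by 2.24 ± 0.46, Fbn1 by 2.04 ± 0.42, Efemp2 by 1.54 ± 0.29, Fbln2 by 1.35 ± 0.31, Fbln5 by 1.27 ± 0.36 and Fbln1 by 1.12 ± 0.22, with edgeR adjusted p of 3.00e-04 to 0.00794. Efemp1 stood at 0.02 ± 0.30 (adjusted p = 0.964 by edgeR). The members' median was 1.79, against -0.01 over all genes tested.

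In control mice the same 9 members rose, against 30.7% of genes called higher, and Efemp1 fell, against 33.2% called lower. Eln rose by 3.33 ± 0.67 (adjusted p = 1.63e-04 by edgeR, n = 6 infarct and 6 remote), Mfap4 by 2.91 ± 0.74 (0.00145) and Fbln7 by 2.37 ± 0.39 (2.51e-05). Fbn1 rose by 2.36 ± 0.48, Fbln5 by 2.10 ± 0.42, Efemp2 by 1.87 ± 0.33, Mfap5 by 1.82 ± 0.51, Fbln2 by 1.69 ± 0.35 and Fbln1 by 1.55 ± 0.25, with edgeR adjusted p of 2.44e-05 to 0.00337. Efemp1 fell by 0.84 ± 0.34 on the log2 scale (adjusted p = 0.0346 by edgeR). That call was lost with library totals in place of TMM factors, at -0.30 (adjusted p = 0.415 by edgeR), a scaling that moved the median of all genes by 0.49 in this comparison, and in 6 of 27 fits that left out 1 library. In control mice the infarct values of 6 members, Fbn1, Mfap4, Efemp2, Fbln7, Fbln1 and Fbln2, all lay above the remote values, as they did for 16.4% of the 14770 genes tested. In CKD mice this held for 0 of 10 members, against 1.16% of the genes tested. Without the remote library of mouse 9180, Mfap4 rose by 3.98, Eln by 4.22 and Mfap5 by 2.60 in control mice, and without the infarct libraries of mice 9172 and 9179 Eln rose by 3.19 and Fbln5 by 1.61 in CKD mice.

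Pan-fibroblast markers moved with both of these comparisons, with 7 of 7 called higher in each diet, and activated fibroblast markers with 6 of 7 in CKD mice and 7 of 7 in control mice. In CKD mice the pan-fibroblast markers Col1a1 and Col3a1 rose by 4.50 and 3.89, against 0.32 to 2.12 for the rest of that list. In control mice they rose by 3.59 and 3.32, against 0.76 to 2.34. Over all genes tested, 24.7% were called higher and 20.2% lower in CKD mice, and 30.7% higher and 33.2% lower in control mice. Cardiomyocyte markers were called lower in 3 of 12 cases in CKD mice, near that share, and in 12 of 12 in control mice. Macrophage markers were called higher in 6 of 6 cases and endothelial markers lower in 5 of 5 in both diets. Of 6 smooth muscle markers, 4 were called higher and 2 lower in CKD mice, and 3 higher and 1 lower in control mice. Of 5 neutrophil markers, 2 were called higher in CKD mice and 5 in control mice. Mesothelial markers were called higher in 2 of 6 cases in CKD mice and 0 of 6 in control mice. Of 4 tested atrial markers, 1 was called higher in CKD mice (Nppa) and 3 lower in control mice. Of 4 tested valve interstitial markers, Fmod was called higher in both diets and Wif1 lower in control mice. Summed macrophage CPM was 464, 2175 and 6489 in CKD infarcts, against 392, 523 and 755 in CKD remote libraries, and 1739, 2732 and 3979 in control infarcts, against 357, 589 and 1330 in control remote libraries. Summed levels of the fibroblast, cardiomyocyte and valve lists by group are those given above, with 93762 to 124713 CPM of cardiomyocyte markers in CKD remote libraries and 50223 to 116622 CPM in control remote libraries. The part of these markers in the rise of the 9 members was not tested.

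Within single hearts, the infarct library was above the remote library of the same mouse for Eln in 6 of 7 CKD hearts and 6 of 6 control hearts. Its log2 difference within hearts was -0.52, 2.65 and 4.37 (lowest, median and highest) in CKD mice, against 1.42, 4.05 and 4.62 in control mice. For Fbln5 it was -0.06, 1.12 and 2.20 in CKD mice, against 0.94, 2.10 and 3.42 in control mice. Mouse 9179 gave the lowest value of both genes in CKD mice, and mouse 9180 the lowest Eln value in control mice. For Efemp1 the infarct was above the remote library in 3 of 7 CKD hearts and 1 of 6 control hearts. Mfap5, Efemp2 and Fbln7 were above in all 7 CKD and all 6 control hearts, and Fbn1, Mfap4, Fbln1 and Fbln2 in 6 of 7 CKD and 6 of 6 control hearts. The lines that join the regions of each heart are drawn for 4 of the genes.

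**Figure D3:**
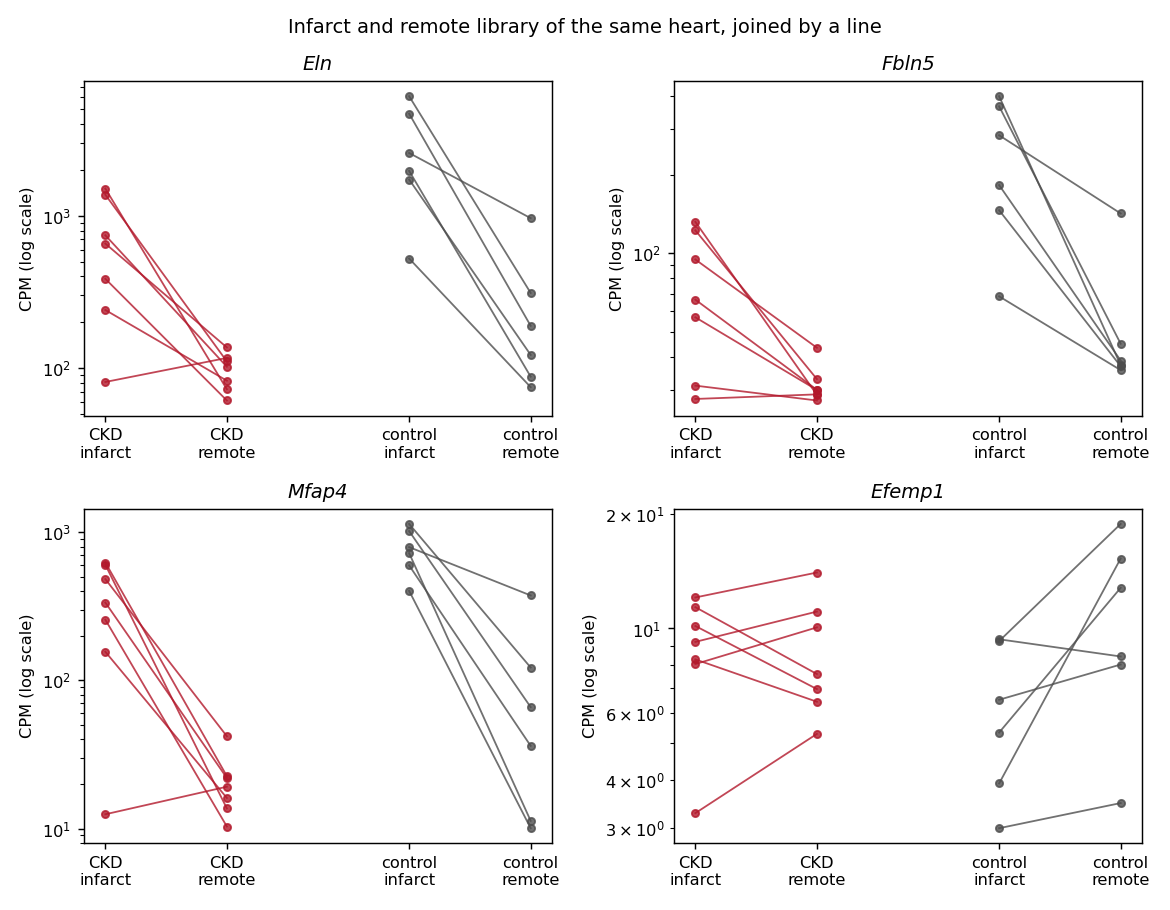
CPM (log scale) of Eln, Fbln5, Mfap4 and Efemp1 in the infarct and remote library of the same heart, joined by a line, with the 7 CKD hearts on the left of each panel and the 6 control hearts on the right. The infarct point lies above the remote point for Eln in 6 of 7 CKD and 6 of 6 control hearts, and for Efemp1 in 3 of 7 and 1 of 6.

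Whether the infarct response itself differed between diets was tested as the CKD response minus the control response. No member was called by edgeR, against 0% of 14770 genes, and none had an unadjusted p under 0.05, against 2787 of those genes. DESeq2 and limma-voom called no member either. The difference was 0.95 ± 0.93 for Mfap4 (adjusted p = 0.623 by edgeR, n = 27 libraries), 0.85 ± 0.46 for Efemp1 (0.314), -0.84 ± 0.54 for Fbln5 (0.420) and -0.56 ± 0.83 for Eln (0.766). Fbln7 stood at 0.49, Mfap5 at 0.41, Fbn1 at -0.32, Efemp2 at -0.32, Fbln2 at -0.35 and Fbln1 at -0.42. The SE of the difference ran from 0.33 for Fbln1 to 0.93 for Mfap4. The sign for Mfap4 and Mfap5 turned without the remote library of control mouse 9180, to -0.12 and -0.36. No marker was called by edgeR here. All 12 cardiomyocyte markers were above 0 (median 1.33) and all 5 neutrophil markers below 0 (median -1.49). An unadjusted p under 0.05 was seen for 12 cardiomyocyte, 3 neutrophil and 2 of 4 tested atrial markers. It was seen for 1 each of the pan-fibroblast, activated fibroblast, smooth muscle and valve lists, and for no endothelial, mesothelial or macrophage marker. The part of these markers in the difference was not tested.

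Likeness between members was described by Pearson's r of log2 CPM after the 4 group means were removed. The 27 libraries share hearts in pairs and the scaling, and r is given with no test. Over the 45 pairs of members, r ran from -0.52 to 0.98 with a median of 0.67, and 29 pairs were above 0.5. Fbn1 and Fbln2 were the most alike pair, with r = 0.98. Eln was most like Fbln5 (0.91) and Mfap4 (0.90), and Mfap4 was most like Mfap5 (0.93). Efemp1 was below 0 with 7 members, with a median of -0.40, and Fbln1 had a median of 0.45. Without 3 libraries, the remote library of mouse 9180 and the infarct libraries of mice 9172 and 9179, the median over pairs was 0.38, 13 pairs were above 0.5, and the median of Efemp1 was -0.27.

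**Figure D4:**
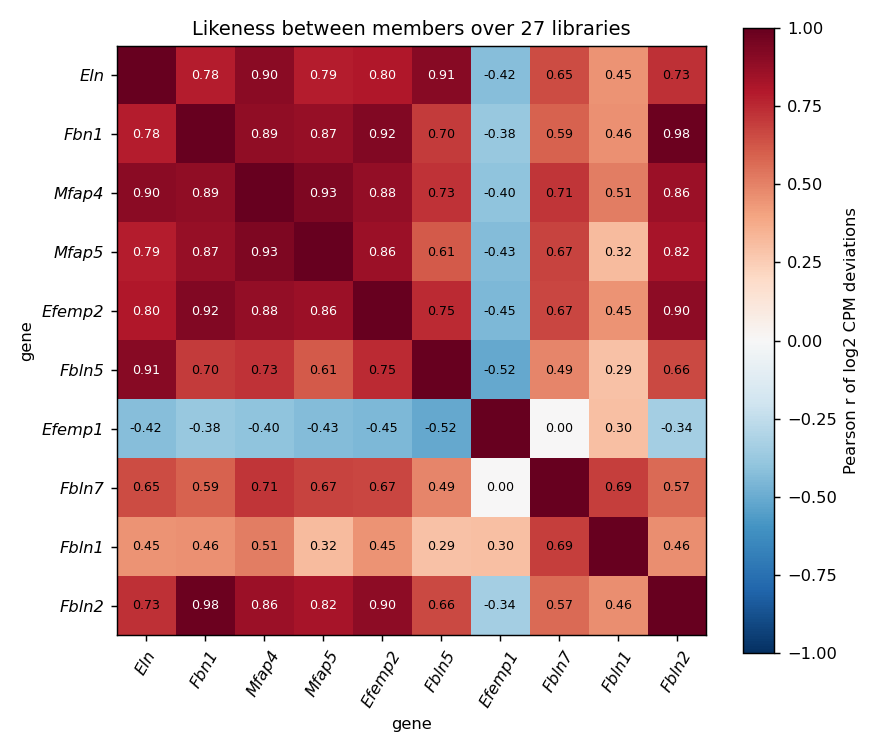
Pearson's r between members over 27 libraries, after subtraction of the 4 group means from log2 CPM; red is positive and blue negative, and both axes list the 10 genes. Fbn1 and Fbln2 are at 0.98, Eln and Fbln5 at 0.91, and the Efemp1 row is blue with 7 members.

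The genes outside the members that were most like each one were taken from the 13239 genes whose mean reached 1 CPM. For Eln these were Mxra7 (0.95), Pmepa1 (0.94) and Tgfb3 (0.94), the last a transforming growth factor beta ligand. Fbn1 and Fbln2 were both most like Emilin1, an elastin-associated glycoprotein, at 0.97 and 0.98. Mfap4 was most like Adamts2, a procollagen protease (0.97), Efemp2 most like Rcn3 (0.98), and Mfap5 most like Fstl1 (0.97). Fbln5 was most like Itgb5, an integrin subunit (0.96), and Fbln7 most like Igfbp4 (0.83). Efemp1 was most like the complement gene C3 (0.80), and Fbln1 most like Entpd2 (0.86) and the complement gene C1ra (0.85). With the marker scores, Eln had r = 0.91 with activated fibroblasts and -0.73 with cardiomyocytes, whereas Efemp1 had -0.53 with activated fibroblasts and 0.44 with mesothelial markers. The likeness was not particular to fibroblasts. With macrophage markers r was 0.76 for Eln, 0.90 for Fbn1, 0.92 for Fbln2 and -0.36 for Efemp1. With pan-fibroblast markers it was 0.77, 0.91, 0.90 and -0.25.

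Promoter sequence was read for the members from RefSeq (build GRCm38.p6), 250 bases before to 50 after each gene's start, and 7 of 10 members matched with 11 windows in all. Those not matched were Eln, Mfap4 and Mfap5. The windows of Fbn1 and Fbln2 are shown because these genes were the most alike, and that of Efemp1 because its r was below 0 with 7 members. Each runs 5′ to 3′ on the gene's own strand, with capitals marking a GC box (GGGCGG or its reverse complement CCGCCC) and, in Efemp1, also an AP-1 motif (TGANTCA).
Fbn1, chr2:125506389-125506688, minus strand: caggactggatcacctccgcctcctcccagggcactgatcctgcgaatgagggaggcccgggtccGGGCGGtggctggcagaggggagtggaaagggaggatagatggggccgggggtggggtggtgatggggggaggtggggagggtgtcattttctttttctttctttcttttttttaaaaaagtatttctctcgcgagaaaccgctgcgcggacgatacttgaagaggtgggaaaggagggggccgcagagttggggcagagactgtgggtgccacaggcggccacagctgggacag
Fbln2, chr6:91212514-91212813, plus strand: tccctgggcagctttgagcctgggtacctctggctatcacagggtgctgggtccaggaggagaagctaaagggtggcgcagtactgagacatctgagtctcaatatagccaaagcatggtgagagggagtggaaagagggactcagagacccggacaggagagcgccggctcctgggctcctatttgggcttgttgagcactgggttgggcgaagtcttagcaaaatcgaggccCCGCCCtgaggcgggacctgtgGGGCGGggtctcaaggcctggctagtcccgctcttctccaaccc
Efemp1, chr11:28852955-28853254, plus strand: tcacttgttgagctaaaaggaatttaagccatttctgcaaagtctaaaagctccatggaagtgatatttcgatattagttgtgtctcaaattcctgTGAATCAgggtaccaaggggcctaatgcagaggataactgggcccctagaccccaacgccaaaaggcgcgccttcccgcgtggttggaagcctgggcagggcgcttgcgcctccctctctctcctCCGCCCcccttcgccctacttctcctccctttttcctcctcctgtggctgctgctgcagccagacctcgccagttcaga
On either strand, the GC box was in 8 of 11 member windows, in 6 genes, against 35.7% of 32851 promoters of the same length. The 11 windows are not separate, since those of Efemp2 that start at bases 5474440 and 5474485 overlap and share GC boxes. The AP-1 motif was in Efemp1 alone of the 11 windows, against 7.81% of all promoters. The E-box CACGTG was in 2 overlapping windows of Fbln1, against 7.15% of all promoters. The TATA box TATAAA and the SMAD motif GTCTAGAC were in none of the 11, against 13.6% and 0.213% of all promoters. The AP-1 letters were matched with any base at N, and the stretch in Efemp1 reads TGAATCA. With 1 of 11 windows against 7.81% of all promoters, these letters are near the background and do not set Efemp1 apart.

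Other genes of the elastic fibre pathway were counted by role in a list of 26, of which 25 were tested and Elane was not. In CKD infarcts against control infarcts 3 of 25 were called lower, against 7.14% of all genes tested, and 0 higher, against 13.1%. Ltbp3, which binds latent transforming growth factor beta, fell by 0.97 ± 0.29 on the log2 scale (adjusted p = 0.0379 by edgeR). Adamts10, a microfibril-binding protease, fell by 0.72 ± 0.20 (adjusted p = 0.0345 by edgeR), and Ltbp4 fell by 0.64 ± 0.19 (0.0376). No gene of the table, these 3 included, was called by edgeR once CKD mice 9172 and 9179 gave no infarct library. The cross-linking enzymes Lox and Loxl1 stood at -1.39 ± 0.64 (adjusted p = 0.119 by edgeR) and -1.17 ± 0.39 (0.0505), and the microfibril genes Fbn2 and Mfap2 at -1.01 (0.115) and -1.01 (0.0750). In remote myocardium none of the 25 was called, and 14 had an unadjusted p under 0.05 in edgeR, against 1626 of 13902 genes tested. Lox stood there at -3.06 ± 0.82 (adjusted p = 0.272 by edgeR). Remote Lox had 3.40, 4.63 and 10.3 CPM in CKD hearts, against 4.22, 7.32 and 218 CPM in control hearts, the highest from mouse 9180.

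In the infarct against remote myocardium, 18 of the 25 rose and 1 fell in CKD mice, against 24.7% of all genes tested called higher and 20.2% lower. In control mice 19 rose and 1 fell, against 30.7% called higher and 33.2% lower. All 5 cross-linking enzymes and all 6 tested elastin-degrading proteases rose in both diets, with 2 of 3 genes of the elastin receptor complex. Of 11 microfibril and assembly genes, 5 rose in CKD mice and 6 in control mice. Lox rose by 4.70 ± 0.81 in CKD mice (adjusted p = 1.46e-04 by edgeR) and by 3.10 ± 0.85 in control mice (0.00264). Loxl1 rose by 1.80 ± 0.36 in CKD mice and by 2.16 ± 0.41 in control mice. The macrophage elastase Mmp12 rose by 5.41 ± 0.91 in CKD mice and by 4.07 ± 0.94 in control mice. The cysteine protease Ctss rose by 4.15 ± 0.62 in CKD mice and by 3.21 ± 0.68 in control mice, and Ctsk by 3.18 ± 0.50 in CKD mice and by 2.78 ± 0.56 in control mice. Mfap2 rose by 2.63 in CKD mice and 2.61 in control mice, and Fbn2 by 2.54 and 2.65. Hmcn1, a hemicentin of the fibulin family, fell by 0.91 ± 0.24 in CKD mice and by 1.15 ± 0.26 in control mice (adjusted p = 0.00404 and 5.74e-04 by edgeR). No gene of the list was called by edgeR in the difference of responses, and none had an unadjusted p under 0.05, against 2787 of 14770 genes.

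**Figure D5:**
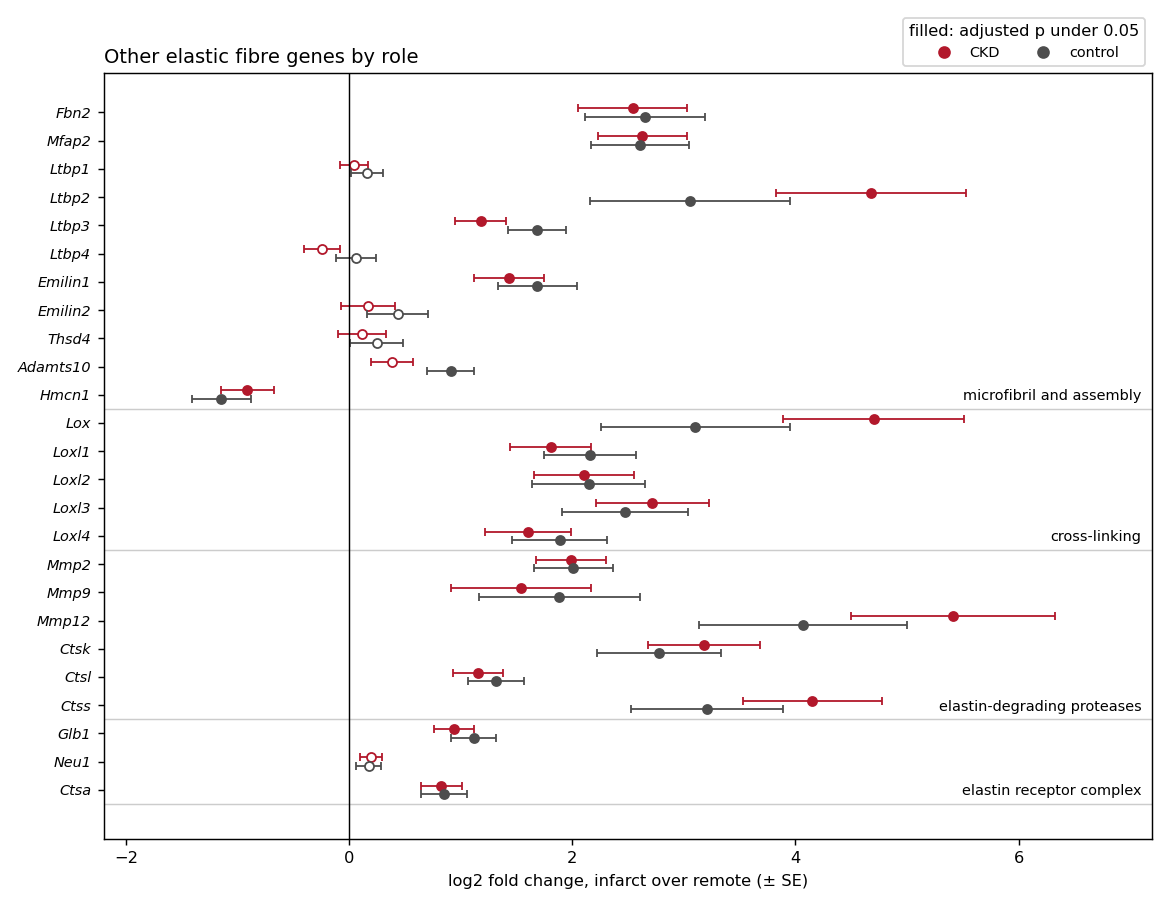
Log2 fold change of infarct over remote myocardium (points, with SE bars) for the 25 tested genes of the elastic fibre pathway outside the members, grouped by role, in CKD and control mice; filled points have an edgeR adjusted p under 0.05. Cross-linking enzymes and proteases lie to the right of 0 throughout, Lox at 4.70 in CKD mice and 3.10 in control mice, and Hmcn1 lies to the left at -0.91 and -1.15.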

How the data were processed

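Bulk RNA sequencing of 27 libraries was analysed. The deposited table holds whole-number counts per gene, a unit taken from the values. The tool and build named per the submitters' processing notes are kallisto 0.48.0 and GRCm39. How transcript estimates became gene counts is not given in the sources used here. Each column was assigned to its sample by title.

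Counts passed filterByExpr, were given TMM factors, and entered edgeR 4.0.16 (R 4.3.3) for a quasi-likelihood test. P-values were adjusted by Benjamini-Hochberg over every gene tested, and calls were made under 0.05. The diets were compared inside a region using only libraries of that region. The region comparisons and the difference of responses used 1 joint model in which each of the 4 groups had its own mean. The SE of a log2 fold change is its size over the square root of F. Scores are the mean log2 CPM (prior count 2) of a marker list. In the activated fibroblast list, Acta2 is also expressed by smooth muscle and Ltbp2 is also in the pathway list. Exon lengths came from GENCODE (GRCm38) and promoters from RefSeq (GRCm38.p6), and no coordinate was converted.

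The members, gene lists, markers and tests were chosen with earlier results of these data known. The text names all 10 members, up to 5 called genes of the pathway list per direction, Lox, Loxl1, Fbn2 and Mfap2, and up to 3 most alike genes per member, and prints a selection. Other settings tried were DESeq2 1.42.0, voom with sample weights in limma 3.58.1, further scalings and filters, covariates, a mouse block and the removal of libraries. Scaling by library totals alone was added after the data were seen. The fits were tested on simulated counts.

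The design pairs the 2 libraries of a heart. In the 13 pairs, deviations from group means had correlations of -0.14 to 0.46 (median 0.21), while those of different mice had a median of -0.02.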

Additional observations from a re-analysis of the deposited data

Results flagged for a closer look

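Libraries far from the others of their group were looked for in 40 combinations of member and group with Dixon's test, which chance meets in about 1 in 20, and 5 were found. Mfap4 and Mfap5 had 12.5 and 28 CPM in the infarct library of CKD mouse 9179, far below the other CKD infarcts, whose next lowest values were 156 and 125 CPM in mouse 9172. Fbln5 had 142 CPM in the remote library of control mouse 9180, far above the next highest value of 45.0 CPM in mouse 9171. Fbln5 also had 43.4 CPM in the remote library of CKD mouse 9175, above the next highest value of 32.97 CPM in mouse 9174. Efemp1 had 3.28 CPM in the infarct library of CKD mouse 9175, below the next lowest value of 8.07 CPM in mouse 9179. Across members, the infarct library of mouse 9179 was the lowest of the CKD infarcts for 9 of 10 genes, and the remote library of mouse 9180 was the highest of the control remote libraries for 8 of 10.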

How the results depend on the processing

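Member calls in CKD against control infarcts numbered 3. They numbered 5 with DESeq2, 5 with a fit of all 27 libraries, 1 with limma-voom, and 0 with the cardiomyocyte score, with the fibroblast score and when CKD mice 9172 and 9179 gave no infarct library. Leaving out each library in turn gave 0 to 5. Of the 13 such fits, Eln passed in 5, Fbln5 in 8 and Fbln1 in 6. Without a filter on low counts Eln had an edgeR adjusted p of 0.0526. The count of members called in the other 4 comparisons did not change in any setting by over 1.5 times.

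The infarct calls over all genes numbered 2908, with 1926 without a filter, 4557 with DESeq2, 5067 with all 27 libraries and 0 with either covariate or without mice 9172 and 9179. In remote myocardium 3 genes were called, with 97 in DESeq2, 5 in limma-voom, 1 in a fit of all 27 libraries and 0 with either covariate. For the difference of responses 0 genes were called, with 600 in DESeq2 and 6 in limma-voom.

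Signs of uncalled values turned as follows, and the cause was not tested. With the fibroblast score in the infarct, Mfap4 stood at 0.15, Mfap5 at 0.14, Fbln7 at 0.18 and Fbln2 at 0.0182. With the same score in remote myocardium, Eln stood at 0.27, Fbn1 at 0.24, Mfap4 at 0.57, Mfap5 at 0.56, Efemp2 at 0.17 and Fbln2 at 0.26. With the cardiomyocyte score there, Fbn1 stood at 0.0637, Mfap5 at 0.19, Efemp2 at 0.0668 and Fbln2 at 0.12. With limma-voom there, Fbn1 stood at 0.0123, Mfap5 at 0.083 and Fbln2 at 0.10. Efemp1 in infarct against remote of CKD mice stood at -0.00289 without mice 9172 and 9179, and at -0.0689 to 0.167 without single libraries. The difference of responses for Fbn1 stood at 0.0685 without mice 9172 and 9179. For Mfap4 it was -0.78 with limma-voom, -0.12 without mouse 9180 and -0.12 to 1.21 without single libraries. For Mfap5 it was -0.62 with limma-voom, -0.36 without mouse 9180 and -0.36 to 0.63 without single libraries.

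With mouse as a replicate block, the paired fit called the same 9 members in CKD mice and 10 in control mice, and 0 for the difference of responses, where Mfap4 turned to -0.19 and Mfap5 to -0.17. Over all genes it called 7200 in CKD mice, against 6644 without the block, and 9758 in control mice, against 9437. It changed no member's call. Reading the remote library of mouse 9179 as control changed no member's call or direction. Library totals alone moved the median of all genes by -0.27 in the infarct comparison of diets, by 0.29 in the region comparison of CKD mice and by 0.49 in that of control mice. Fbln7 had the lowest counts of the members in CKD remote libraries, at 9 to 22. Its SE for CKD against control in remote myocardium was 0.30, between 0.16 for Fbln1 and 0.67 for Mfap4.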
